A study of Homo sapiens with 8 samples.

Results

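Mitosis and spindle genes were followed in cells whose NYNRIN messenger RNA had been lowered with a short hairpin RNA. The list holds 50 members, chosen by name for their roles between entry into mitosis and the cutting of the daughter cells, out of 35971 genes listed in all. The rule uses no measured value, but the list was drawn up with earlier results of these data known. Of the 50 members, 48 were listed in both deposited tables and were tested among 12939 genes. NUSAP1, a microtubule-bundling protein, and PRC1, which cross-links the microtubules of the central spindle, were listed only in the second table. Both lay below 1 FPKM there. NUSAP1 had 0.3896 and 0.2671 FPKM in shNYNRIN, against 0.52 FPKM in shCTL replicate 4, and PRC1 had 0.5447 and 0.7077 FPKM in shNYNRIN, against 0.5294 FPKM in shCTL replicate 4. Both genes are overlapped by other annotated genes on their own strand (GENCODE 29), and neither was tested.

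The shNYNRIN group carried a lentiviral hairpin against NYNRIN, labelled as an NYNRIN knockdown, and the shCTL group a control hairpin, labelled wild type. Every library came from sorted cells with the label KG-1a, a line established from a human acute myeloid leukaemia. Their labelled source is bone marrow and their labelled cell type leukaemia stem cell. There were 4 libraries of each group in 2 deposited tables, called set 1, with replicates 1 and 2, and set 2, with replicates 3 and 4. Whether both sets used the same hairpin, and whether replicates were separate cultures, is not stated in the sources used here, so the spread behind the p-values may be technical. Values are FPKM (fragments counted per unit of transcript length and of library size). ShCTL replicate 3 held whole numbers only and entered no test. Set 2 therefore rested on 1 control library, whose spread was taken to equal that of the other groups. The 7 tested libraries summed to between 308998 and 313691 FPKM, and the read depth of single libraries is unknown. For set 1 the authors' deposited table gives mean normalized counts, which summed to 38530000 and ranged from 101 to 43372 over the 48 members, with a median of 5290.

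The markers of the labelled line were only partly present. CD34, a defining surface marker of KG-1a cells, lay at 0.68 to 1.42 FPKM in shNYNRIN and 0.933 to 1.79 FPKM in shCTL. CD38, a surface enzyme of maturing blood cells, reached at most 0.0286 FPKM, and FLT3 and PROM1 were not analysed here. Of the 10 markers listed for the line, 8 were in the second table and 7 in both, and these summed to 196 to 250 FPKM in shNYNRIN and 199 to 240.0 FPKM in shCTL. Of these 7, PTPRC, CD44, SPN, ITGA4, CD33 and KIT were at 1 FPKM or more in every tested library. SPN had 64.8 to 74.1 FPKM in shNYNRIN and 67.5 to 79.8 FPKM in shCTL. CD44 had 14.2 to 20.2 FPKM in shNYNRIN and 12.8 to 18.1 FPKM in shCTL. Erythroid and megakaryocyte markers were high in both groups, with 9 of 10 listed and a sum of 678 to 702 FPKM in shNYNRIN and 702 to 752 FPKM in shCTL. ITGA2B, a platelet integrin chain, had 518 to 537 FPKM in shNYNRIN and 544 to 589 FPKM in shCTL, and KLF1, an erythroid transcription factor, 53.0 to 70.0 FPKM in shNYNRIN and 60.0 to 72.3 FPKM in shCTL. HBB, the adult beta-globin gene, had 31.4 to 39.6 FPKM in shNYNRIN and 36.0 to 50.8 FPKM in shCTL. The marker values go against the label in CD34 and in the erythroid and megakaryocyte genes, and the cells are called here cells labelled KG-1a. Of 10 mature monocyte and granulocyte markers, 2 were in both tables, LYZ and CSF1R. They summed to 13.1 to 15.4 FPKM in shNYNRIN and 9.97 to 10.5 FPKM in shCTL. Of 8 lymphoid markers, 1 was in both tables, CD79A, with 1.11 to 1.92 FPKM in shNYNRIN and 1.15 to 1.47 FPKM in shCTL. Stromal, epithelial and endothelial markers summed to 36.5 to 37.7 FPKM in shNYNRIN and 35.4 to 42.4 FPKM in shCTL. The part of these marker differences in the results below was not tested.

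NYNRIN, the targeted gene (chr14:24398786-24419288, plus strand, GRCh38), was lower in shNYNRIN in both sets. In set 1 it had 6.98 and 7.30 FPKM in shNYNRIN, against 12.2 and 12.46 FPKM in shCTL (log2 fold change -0.71 ± 0.052, where ± gives the standard error of a fold change throughout, limma adjusted p = 0.000984). In set 2 it had 2.83 and 2.84 FPKM in shNYNRIN, against 10.4 FPKM in shCTL replicate 4 (log2 fold change -1.57 ± 0.064, limma adjusted p = 0.000119). The difference between these effects, set 2 minus set 1, was -0.85 ± 0.082 (limma adjusted p = 0.00132). With both sets in 1 additive model, the effect of -1.05 ± 0.16 missed the threshold of 0.05 (limma adjusted p = 0.0612).

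A cell enters mitosis when CDK1 bound to a B-type cyclin becomes active, helped by the phosphatases of the CDC25 family and by Polo-like and Aurora kinases. Microtubules then capture chromosomes at kinetochores, the spindle checkpoint holds the cell until every chromosome is attached, and CDC20 with the anaphase-promoting complex (APC/C) marks securin and cyclin B for destruction. In dividing cells most of these genes are transcribed together late in the cycle, from promoters that often carry a CCAAT box and a cell cycle genes homology region (CHR), the element bound by the DREAM repressor complex and by activators with B-MYB and FOXM1. In leukaemia lines, which divide continuously, such genes are among the well expressed ones.

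The members were abundant here. Their mean level over the 7 libraries had a median of 41.3 FPKM, against 8.4 FPKM over all tested genes, and 46 of 48 exceeded 10 FPKM in every library. TPX2, which activates Aurora A on spindle microtubules, was the highest at 216 FPKM. It was followed by TOP2A at 201 FPKM, PTTG1 at 178 FPKM, UBE2C at 169 FPKM and CDC20 at 157 FPKM. ECT2 averaged 9.17 FPKM and SPC25, the lowest tested member, 1.87 FPKM.

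The promoter windows of 8 members are shown because these members, which all rose in set 1, differ in the placement of the CHR letters searched. Windows come from RefSeq (GRCh38.p14), and 43 of the 50 members matched, with 53 windows of 250 bases before to 50 after an annotated start. The members without a match were TPX2, FOXM1, BUB3, AURKA, TTK, UBE2C and BIRC5. The letters searched were TTTGAA or TTCGAA for the CHR and CCAAT for the CCAAT box, on both strands, with overlaps allowed. No other form of the CHR was searched, so a window without a match may still hold one. In the sequences, printed 5′ to 3′ over the 250 bases before the start, capitals mark both motifs on either strand. The first 4 have a CHR match within 50 bases of the start, and the other 4, which had the largest log2 fold changes of all members in set 1, have none there.
CCNB2 (chr15:59104896-59105145, plus strand): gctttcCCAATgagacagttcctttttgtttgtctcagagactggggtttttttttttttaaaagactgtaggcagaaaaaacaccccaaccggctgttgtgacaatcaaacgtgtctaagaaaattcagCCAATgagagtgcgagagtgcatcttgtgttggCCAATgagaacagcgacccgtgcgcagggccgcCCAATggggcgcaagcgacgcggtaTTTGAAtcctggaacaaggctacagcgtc
PLK1 (chr16:23678639-23678888, plus strand): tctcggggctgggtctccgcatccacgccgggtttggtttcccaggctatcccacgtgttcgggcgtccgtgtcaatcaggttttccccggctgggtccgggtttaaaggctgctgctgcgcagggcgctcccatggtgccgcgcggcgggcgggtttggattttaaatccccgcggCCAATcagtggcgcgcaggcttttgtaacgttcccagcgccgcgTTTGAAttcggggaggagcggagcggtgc
CKS2 (chr9:89310945-89311194, plus strand): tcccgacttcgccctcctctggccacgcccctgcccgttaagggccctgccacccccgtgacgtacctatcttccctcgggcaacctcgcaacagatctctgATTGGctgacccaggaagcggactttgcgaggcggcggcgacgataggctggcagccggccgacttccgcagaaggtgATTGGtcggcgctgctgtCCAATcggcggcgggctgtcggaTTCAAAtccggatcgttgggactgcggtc
HMMR (chr5:163460382-163460631, plus strand): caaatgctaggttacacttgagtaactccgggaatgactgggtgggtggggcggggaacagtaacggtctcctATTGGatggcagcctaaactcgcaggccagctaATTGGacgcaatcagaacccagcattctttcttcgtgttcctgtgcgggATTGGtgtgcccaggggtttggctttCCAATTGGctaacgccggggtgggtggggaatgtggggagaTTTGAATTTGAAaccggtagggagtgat
CCNB1 (chr5:69166900-69167149, plus strand): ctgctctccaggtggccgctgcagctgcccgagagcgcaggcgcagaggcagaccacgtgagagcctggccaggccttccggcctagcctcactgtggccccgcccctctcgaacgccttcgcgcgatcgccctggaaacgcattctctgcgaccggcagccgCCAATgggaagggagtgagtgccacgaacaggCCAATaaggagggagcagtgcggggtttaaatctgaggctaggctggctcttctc
CDC20 (chr1:43358731-43358980, plus strand): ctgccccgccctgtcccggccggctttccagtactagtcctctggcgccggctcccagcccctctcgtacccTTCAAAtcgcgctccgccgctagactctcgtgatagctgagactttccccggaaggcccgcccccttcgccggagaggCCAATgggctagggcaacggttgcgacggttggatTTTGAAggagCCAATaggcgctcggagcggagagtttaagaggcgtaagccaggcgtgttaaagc
KIF20A (chr5:138178862-138179111, plus strand): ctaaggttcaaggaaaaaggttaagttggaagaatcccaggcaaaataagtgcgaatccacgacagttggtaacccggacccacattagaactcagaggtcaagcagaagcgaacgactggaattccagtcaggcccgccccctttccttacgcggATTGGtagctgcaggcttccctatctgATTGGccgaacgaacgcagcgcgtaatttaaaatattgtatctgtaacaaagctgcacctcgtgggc
MZT1 (chr13:72727630-72727879, minus strand): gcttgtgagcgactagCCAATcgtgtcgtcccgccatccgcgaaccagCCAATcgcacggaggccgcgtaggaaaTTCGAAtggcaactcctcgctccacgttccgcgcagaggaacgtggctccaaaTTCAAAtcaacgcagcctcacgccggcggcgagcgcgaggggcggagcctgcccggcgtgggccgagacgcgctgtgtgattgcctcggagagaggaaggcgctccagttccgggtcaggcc
CCNB2, PLK1, CKS2 and HMMR have their CHR match 28 or 29 bases before the start, with at least 1 CCAAT box upstream. CDC20 and MZT1 hold CHR letters farther upstream, the nearest 65 and 122 bases before the start, and CCNB1 and KIF20A hold none in the window. A CHR match within 50 bases before to 50 after the start was in 29 of the members' 53 windows (54.7%), against 5.01% of all 35116 windows of the same length. The CCAAT box was in 42 of 53 windows (79.2%), against 34.6% of all windows, and both together in 25 of 53 (47.2%), against 2.04%. A match is a description of these letters and not a measured binding site.

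In set 1 the mitosis and spindle genes were higher in shNYNRIN as a list. Of the 48 tested members, 27 rose and 0 fell, whereas 9.33% of all tested genes rose and 6.61% fell. Well expressed genes passed more often. With a floor of 10 FPKM in at least 2 libraries, 1225 of 6150 genes rose and 878 fell, while 29 members rose and 0 fell. The median log2 fold change was 0.21 over the members, against 0.026 over all tested genes, and the range ran from -0.15 for SPC25 to 1.06 for MZT1. Every shNYNRIN library lay above every shCTL library of set 1 for 40 members, as it did for 35.0% of all tested genes, and below for 1 member, BUB3, as it did for 24.5% of all tested genes. Summed over the 48 members, levels were 3264 and 3282 FPKM in shNYNRIN, against 2746 and 2756 FPKM in shCTL. As a share of the library's sum these were 1.05% and 1.06% in shNYNRIN, against 0.886% and 0.885% in shCTL. In bulk RNA a larger share of cells in mitosis and more of these transcripts per cell cannot be told apart. The q-values of the authors' deposited table, which covers the same 4 libraries, also called 27 members higher and 0 lower at 0.05, where 9.40% of its genes were higher. Of these, 26 were shared, CKS1B passed only with limma and ECT2 only by the authors' q-value.

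**Figure D1:**
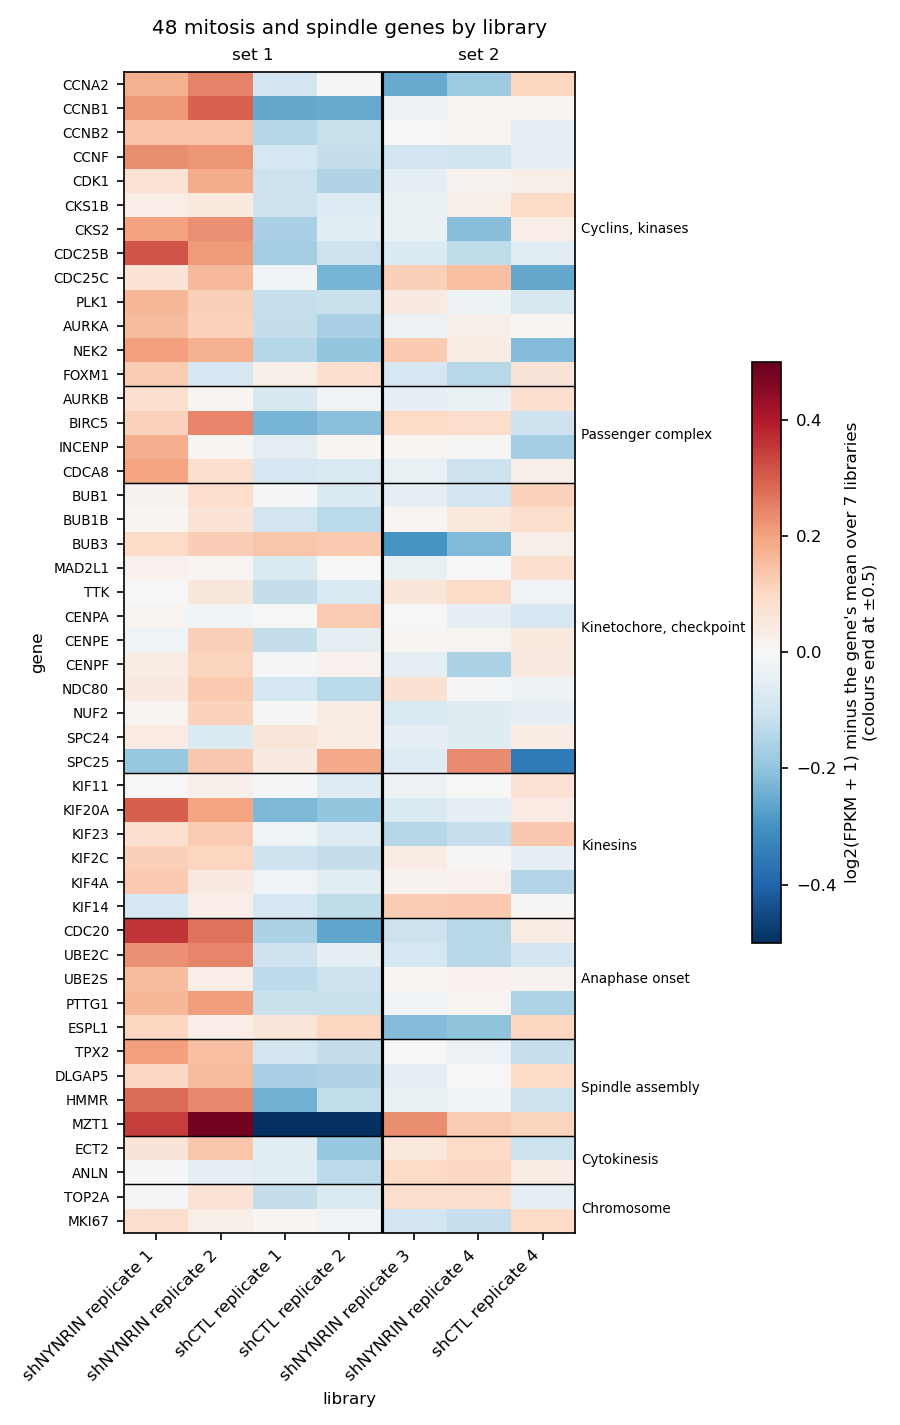
Heat map of the 48 tested members (rows, grouped by role) in 7 libraries (columns, set 1 left of the line and set 2 right of it), coloured by log2(FPKM + 1) minus the gene's mean over the 7 libraries. In set 1 the 2 shNYNRIN columns are mostly red beside mostly blue shCTL columns, and in set 2 neither group has one colour throughout.

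In set 2 the list did not move one way. Of the 48 members, 4 rose (CDC25C, NEK2, BIRC5 and PTTG1) and 6 fell (CCNA2, ESPL1, BUB3, KIF23, MKI67 and BUB1), beside 11.6% of all tested genes that rose and 8.71% that fell. The median log2 fold change was -0.023 over the members and 0.018 over all tested genes. With the floor of 10 FPKM, 1248 of 6150 genes rose and 1084 fell, while 6 members rose and 7 fell. The members' sum was 2922 and 2905 FPKM in shNYNRIN, against 2952 FPKM in shCTL replicate 4. ShNYNRIN libraries were both above the control for 20 of 48 members and both below it for 24, as they were for 45.8% and 38.4% of all tested genes.

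The difference between the sets was tested as the effect in set 2 minus the effect in set 1. It was negative and past the threshold for 25 of 48 members and positive past it for 0, where 10% of all tested genes passed in the negative and 10.3% in the positive direction. Its median was -0.21 over the members and -0.012 over all tested genes. With the floor of 10 FPKM, 1272 of 6150 genes passed in the negative direction and 1155 in the positive, beside 28 and 0 members. Both groups differed between the tables. Both shNYNRIN libraries of set 2 were below both of set 1 for 34 members, and shCTL replicate 4 was above both set 1 controls for 33 members, against 31.5% and 41.4% of all tested genes in these 2 comparisons. The sets differ in their deposited table and in the depth of the knockdown, and these cannot be told apart.

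**Figure D2:**
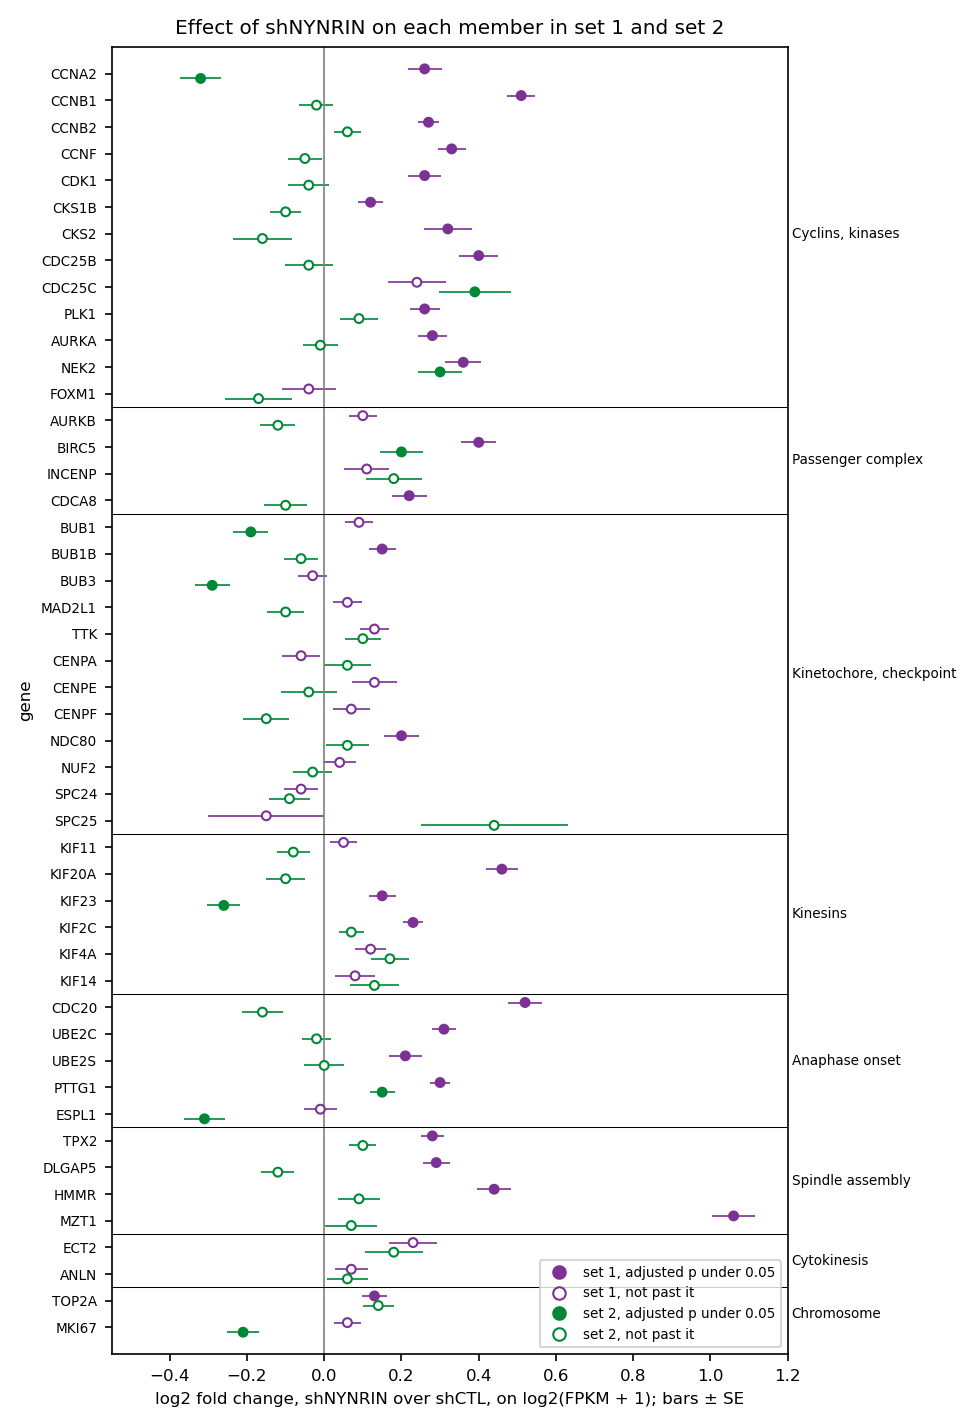
Log2 fold change of shNYNRIN over shCTL (horizontal axis, on log2(FPKM + 1), bars ± SE) for each tested member (vertical axis, grouped by role) in set 1 (purple) and set 2 (green), filled where the limma adjusted p was under 0.05. The filled purple points all lie right of 0, up to 1.06 for MZT1, while the 10 filled green points lie on both sides.

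With 1 effect fitted to both sets, 1 member passed. NEK2, a kinase that separates the centrosomes at mitotic entry, rose with a log2 fold change of 0.34 (limma adjusted p = 0.0479), and 0 members fell, where 0.193% of all tested genes rose and 0.124% fell. At an unadjusted p under 0.05 there were 20 of 48 members, beside 18.7% of all tested genes, and the median log2 fold change was 0.13, against 0.022 over all tested genes. In this model the disagreement between the sets counts as error. NEK2 had 22.15 and 21.7 FPKM in shNYNRIN, against 17.2 and 16.55 FPKM in shCTL of set 1, and 20.99 and 19.6 FPKM in shNYNRIN, against 16.3 FPKM in shCTL replicate 4. All 4 shNYNRIN libraries were above all 3 shCTL libraries. The same held for 15 of 48 members (HMMR, NDC80, TPX2, BIRC5, KIF4A, TTK, ECT2, NEK2, TOP2A, KIF2C, CCNB2, CDC25C, PTTG1, PLK1 and MZT1), beside 10.7% of all tested genes, and for 0 members in the opposite direction, beside 5.51% of all tested genes. The call of NEK2 was lost when any of shNYNRIN replicates 1 to 4 or shCTL replicates 1 and 2 was left out, with adjusted p up to 0.175.

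Most of the cyclins, kinases and their regulators rose in set 1. Of 13 tested, 11 rose (84.6%, against 9.33% of all tested genes) and 0 fell, with a median of 0.27. CCNB1, the B-type cyclin that activates CDK1 (chr5:69167010-69178245, plus strand), had 84.5 and 89.5 FPKM in shNYNRIN, against 60.7 and 60.9 FPKM in shCTL. CCNB1 rose in set 1 with a log2 fold change of 0.51 ± 0.036 (limma adjusted p = 0.000957). The groups did not overlap. Set 2 gave 71.3 and 73.3 FPKM in shNYNRIN, against 73.3 FPKM in shCTL replicate 4, and shCTL replicate 3 was listed at 76. The log2 fold change there was -0.02 ± 0.044 and did not pass (limma adjusted p = 0.808). CCNB1 in shCTL replicate 4 lay between both groups of set 1.

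CDC25B and CDC25C are phosphatases that remove the inhibitory phosphate from CDK1. CDC25B had 25.8 and 24.0 FPKM in shNYNRIN, against 18.1 and 19.0 FPKM in shCTL in set 1. This gave CDC25B a log2 fold change of 0.40 ± 0.05 in set 1 (limma adjusted p = 0.00552). Values of set 2 were 19.6 and 18.8 FPKM in shNYNRIN, against 19.8 FPKM in shCTL replicate 4, with the control above both. CDC25C had 14.1 and 15.1 FPKM in shNYNRIN, against 13.3 and 11.3 FPKM in shCTL in set 1, where its log2 fold change of 0.24 did not pass (limma adjusted p = 0.0786). Set 2 levels were 14.7 and 15.0 FPKM in shNYNRIN, against 11.1 FPKM in shCTL replicate 4. CDC25C passed in set 2, at 0.39 ± 0.093 on the log2 scale (limma adjusted p = 0.0287). CDC25C was the largest rise past the threshold in set 2.

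CCNF, the substrate receptor of an SCF ubiquitin ligase, had 24.4 and 24.2 FPKM in shNYNRIN, against 19.3 and 18.9 FPKM in shCTL in set 1. The rise of CCNF in set 1 was 0.33 ± 0.036 on the log2 scale (limma adjusted p = 0.00363). Its 2 shNYNRIN values in set 2 were 19.2 and 19.17 FPKM, against 19.9 FPKM in shCTL replicate 4, a change that did not pass (limma adjusted p = 0.454). CKS2, a small subunit that docks CDK complexes on phosphorylated substrates, had 111 and 113 FPKM in shNYNRIN, against 86.3 and 92.8 FPKM in shCTL in set 1. CKS2 rose in set 1 with a log2 fold change of 0.32 ± 0.062 (limma adjusted p = 0.0185). In set 2 there were 94.5 and 83.3 FPKM in shNYNRIN, against 99.0 FPKM in shCTL replicate 4, with the control above both. The difference between the sets was -0.48 ± 0.098 for CKS2 and -0.38 ± 0.056 for CCNF (limma adjusted p = 0.0166 for CKS2 and 0.00551 for CCNF).

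CCNA2, the A-type cyclin active from S phase into early mitosis (chr4:121816444-121823933, minus strand), moved in opposite directions in the sets. In set 1 it had 74.3 and 78.0 FPKM in shNYNRIN, against 61.3 and 65.3 FPKM in shCTL. This gave CCNA2 a log2 fold change of 0.26 ± 0.044 in set 1 (limma adjusted p = 0.0128). In set 2, levels were 54.9 and 57.6 FPKM in shNYNRIN, against 70.6 FPKM in shCTL replicate 4, with shCTL replicate 3 listed at 70. CCNA2 passed in set 2, at -0.32 ± 0.054 on the log2 scale (limma adjusted p = 0.00881). The difference was -0.59 ± 0.07 (limma adjusted p = 0.00258). The set 1 call of CCNA2 was lost without shCTL replicate 1 and with no trend, while its set 2 call held throughout. The annotated span of CCNA2 overlaps that of EXOSC9 on the opposite strand. The extent of the overlap and the share of reads it concerns were not measured, and the strand setting is not stated.

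Of the remaining members of the group, CDK1, AURKA, PLK1, CCNB2 and CKS1B rose in set 1 by log2 fold changes of 0.26, 0.28, 0.26, 0.27 and 0.12, and had -0.04, -0.01, 0.09, 0.06 and -0.10 in set 2 without passing. PLK1, the Polo-like kinase, had 34.5 and 33.3 FPKM in shNYNRIN, against 28.2 and 28.3 FPKM in shCTL in set 1. In set 2 it had 31.6 and 30.04 FPKM in shNYNRIN, against 28.9 FPKM in shCTL replicate 4, so that every shNYNRIN value exceeded every shCTL value. FOXM1, the forkhead factor that activates many of these promoters, had the log2 fold change nearest 0 of the group in set 1, with 20.6 and 17.6 FPKM in shNYNRIN, against 19.2 and 19.96 FPKM in shCTL and a log2 fold change of -0.04 (limma adjusted p = 0.762). Set 2 gave 17.6 and 17.0 FPKM in shNYNRIN, against 19.7 FPKM in shCTL replicate 4, with no call (limma adjusted p = 0.207).

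**Figure D3:**
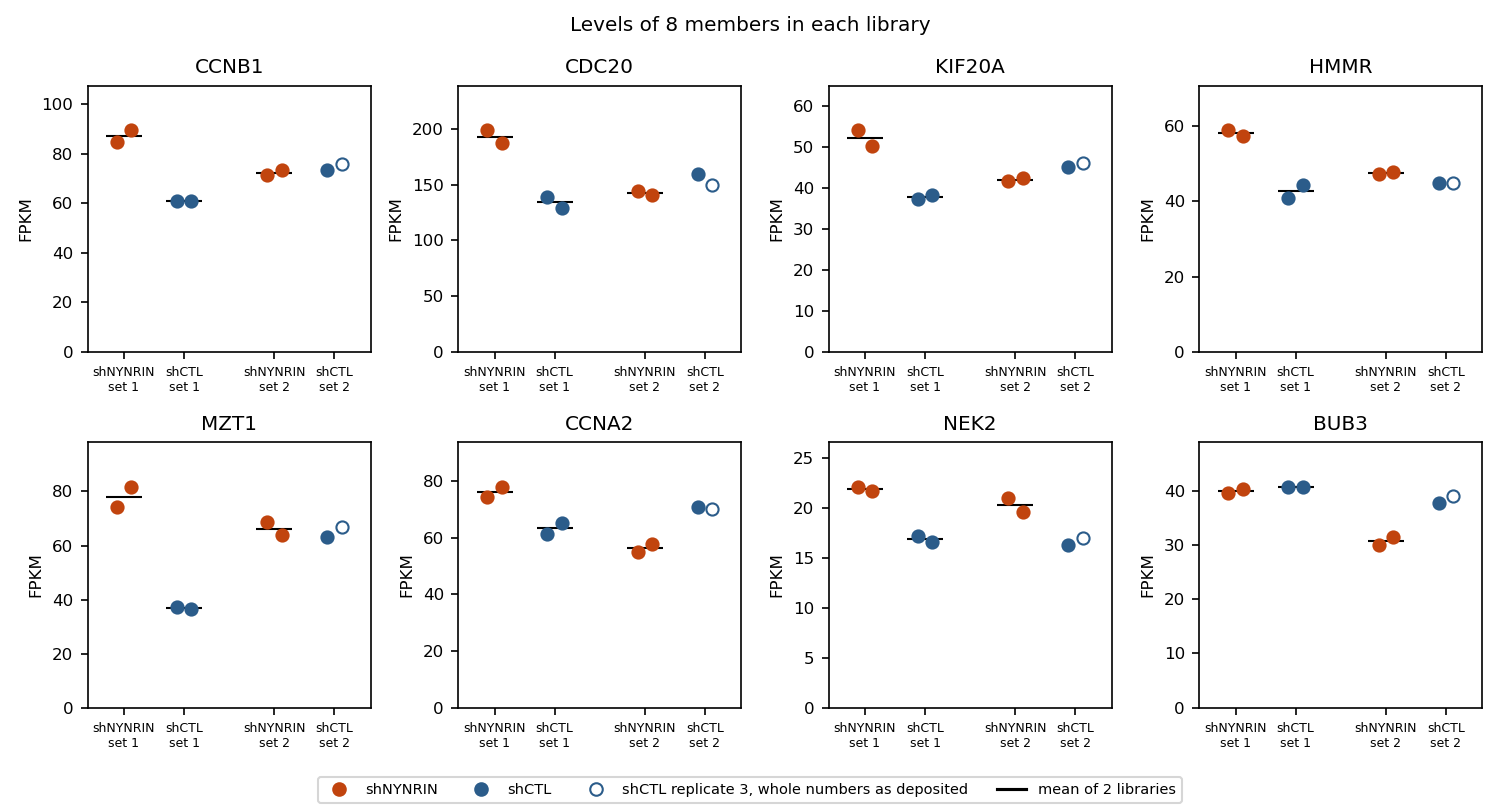
Levels (FPKM, vertical axes from 0) of 8 members in shNYNRIN and shCTL of set 1 and set 2 (horizontal axes), 1 point per library, with a line at the mean of 2 libraries and an open circle for the whole-number value of shCTL replicate 3. The shCTL points of set 1 are the lowest for MZT1 (36.4 and 37.3 FPKM) and CCNB1, while for BUB3 and CCNA2 the set 2 shNYNRIN points are the lowest.

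The chromosomal passenger complex places Aurora B at centromeres and later at the midzone. Of its 4 members, 2 rose in set 1 and 1 in set 2, and 0 fell in either. Over all tested genes 9.33% rose in set 1 and 11.6% in set 2. BIRC5 (survivin) had 64.1 and 70.1 FPKM in shNYNRIN, against 50.1 and 51.0 FPKM in shCTL in set 1. Values of set 2 were 63.3 and 62.8 FPKM in shNYNRIN, against 54.9 FPKM in shCTL replicate 4. The 4 shNYNRIN libraries lay above the 3 shCTL libraries. The rise of BIRC5 in set 1 was 0.40 ± 0.045 on the log2 scale (limma adjusted p = 0.00396). BIRC5 rose in set 2 with a log2 fold change of 0.20 ± 0.055 (limma adjusted p = 0.0461). The set 2 call was lost without any of shNYNRIN replicates 3 and 4 or shCTL replicates 1 and 2. CDCA8 (borealin) had 82.1 and 75.6 FPKM in shNYNRIN, against 67.4 and 67.8 FPKM in shCTL in set 1. Set 2 levels were 69.7 and 66.4 FPKM in shNYNRIN, against 73.1 FPKM in shCTL replicate 4, with the control above both. This gave CDCA8 a log2 fold change of 0.22 ± 0.045 in set 1 (limma adjusted p = 0.0235). AURKB, the kinase of the complex, had 71.5 and 68.0 FPKM in shNYNRIN, against 63.8 and 66.7 FPKM in shCTL in set 1. In set 2 there were 65.6 and 66.0 FPKM in shNYNRIN, against 71.5 FPKM in shCTL replicate 4. It passed in neither set (limma adjusted p = 0.126 in set 1 and 0.116 in set 2). INCENP, the scaffold, had log2 fold changes of 0.11 and 0.18 in set 1 and set 2, and did not pass.

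Of 12 tested kinetochore and spindle checkpoint genes, 2 rose in set 1 (BUB1B and NDC80, 16.7%, against 9.33% of all tested genes) and 0 fell, with a median of 0.061. In set 2, 0 rose and 2 fell (BUB1 and BUB3, 16.7%, against 8.71% of all tested genes). Among 6150 genes with at least 10 FPKM in at least 2 libraries, 1225 rose in set 1 and 1084 fell in set 2. NDC80, the microtubule-binding subunit of the outer kinetochore, had 47.3 and 50.2 FPKM in shNYNRIN, against 43.0 and 41.6 FPKM in shCTL in set 1. In set 2, levels were 48.3 and 45.6 FPKM in shNYNRIN, against 44.9 FPKM in shCTL replicate 4. NDC80 passed in set 1, at 0.20 ± 0.045 on the log2 scale (limma adjusted p = 0.0295). BUB1B (BubR1), a part of the checkpoint inhibitor of the APC/C, had 71.4 and 74.5 FPKM in shNYNRIN, against 66.6 and 64.7 FPKM in shCTL in set 1. In set 2 it had 71.4 and 73.7 FPKM in shNYNRIN, against 75.5 FPKM in shCTL replicate 4. The rise of BUB1B in set 1 was 0.15 ± 0.035 on the log2 scale (limma adjusted p = 0.0314). Both set 1 calls were lost without shCTL replicate 1 (adjusted p up to 0.137 and 0.15 over the left-out libraries).

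BUB3, which carries BUB1 and BubR1 to kinetochores (chr10:123154277-123170467, plus strand), fell in set 2. In set 1 it had 39.6 and 40.3 FPKM in shNYNRIN, against 40.7 and 40.6 FPKM in shCTL, a narrow spread with a log2 fold change of -0.03 (limma adjusted p = 0.677). Set 2 gave 29.9 and 31.5 FPKM in shNYNRIN, against 37.7 FPKM in shCTL replicate 4, with shCTL replicate 3 listed at 39. BUB3 fell in set 2 with a log2 fold change of -0.29 ± 0.045 (limma adjusted p = 0.00667). The set 2 shNYNRIN libraries were the lowest of the 7 tested. BUB1, the checkpoint kinase, had 154 and 161 FPKM in shNYNRIN, against 151 and 145 FPKM in shCTL in set 1. Values of set 2 were 147 and 142 FPKM in shNYNRIN, against 165 FPKM in shCTL replicate 4. This gave BUB1 a log2 fold change of -0.19 ± 0.045 in set 2 (limma adjusted p = 0.0301). The other 8 members, the checkpoint genes MAD2L1 and TTK, the centromere proteins CENPA, CENPE and CENPF, and the NDC80 complex subunits NUF2, SPC24 and SPC25, passed in neither set. Their log2 fold changes ran from -0.15 to 0.13 in set 1 and from -0.15 to 0.44 in set 2, and both the lowest in set 1 and the highest in set 2 belonged to SPC25, with an SE of 0.15 and 0.19.

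The kinesins are motors that move chromosomes and slide or depolymerise microtubules. Of 6 tested, 3 rose in set 1 (KIF20A, KIF2C and KIF23) and 1 fell in set 2 (KIF23), with medians of 0.13 and -0.007. Over all tested genes 9.33% rose in set 1 and 8.71% fell in set 2. KIF20A, which brings the passenger complex to the midzone (chr5:138178719-138187715, plus strand), had 54.1 and 50.4 FPKM in shNYNRIN, against 37.3 and 38.2 FPKM in shCTL in set 1. KIF20A passed in set 1, at 0.46 ± 0.042 on the log2 scale (limma adjusted p = 0.00201). Set 2 levels were 41.6 and 42.5 FPKM in shNYNRIN, against 45.2 FPKM in shCTL replicate 4, with the control above both. KIF20A overlaps BRD8 and CDC23 on the opposite strand, and CDC23, an APC/C subunit, also rose in set 1 (log2 fold change 0.28 ± 0.037, limma adjusted p = 0.00622).

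KIF2C, a microtubule depolymerase, had 114 and 113 FPKM in shNYNRIN, against 97.0 and 96.0 FPKM in shCTL in set 1. In set 2 there were 107 and 105 FPKM in shNYNRIN, against 101 FPKM in shCTL replicate 4, with the control below both. The rise of KIF2C in set 1 was 0.23 ± 0.027 on the log2 scale (limma adjusted p = 0.00435). KIF23, a motor of the central spindle, had 39.8 and 41.2 FPKM in shNYNRIN, against 37.0 and 36.0 FPKM in shCTL in set 1. In set 2, levels were 33.9 and 34.7 FPKM in shNYNRIN, against 41.4 FPKM in shCTL replicate 4. KIF23 rose in set 1 with a log2 fold change of 0.15 ± 0.035 (limma adjusted p = 0.0353). This gave KIF23 a log2 fold change of -0.26 ± 0.043 in set 2 (limma adjusted p = 0.00777). The sign of KIF23 thus differed between the sets, and the difference was -0.41 ± 0.055 (limma adjusted p = 0.00402). The set 1 call of KIF23 was lost in set 1 alone, with either scaling, with no trend and without shCTL replicate 1. Its set 2 call held throughout. KIF11, the motor that pushes spindle poles apart, had the log2 fold change nearest 0 of the kinesins in set 1, with 38.1 and 38.8 FPKM in shNYNRIN, against 37.7 and 36.4 FPKM in shCTL (log2 fold change 0.05). KIF4A and KIF14 had 0.12 and 0.08 in set 1 and 0.17 and 0.13 in set 2, and passed in neither.

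Genes of anaphase onset gave some of the largest rises. Of 5 tested, 4 rose in set 1 (80%, against 9.33% of all tested genes) and 0 fell, with a median of 0.30. CDC20, the activator of the APC/C (chr1:43358955-43363203, plus strand), had 199 and 187 FPKM in shNYNRIN, against 139 and 129 FPKM in shCTL in set 1. CDC20 passed in set 1, at 0.52 ± 0.044 on the log2 scale (limma adjusted p = 0.00169). In set 2 it had 144 and 141 FPKM in shNYNRIN, against 159 FPKM in shCTL replicate 4, with shCTL replicate 3 listed at 150. The log2 fold change there was -0.16 ± 0.054 and did not pass (limma adjusted p = 0.0833). The difference between the sets was -0.68 ± 0.07 (limma adjusted p = 0.00161). The shNYNRIN libraries of set 1 were the highest of all for CDC20, and those of set 2 lay between both groups of set 1.

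UBE2C, the ubiquitin-conjugating enzyme that starts chains for the APC/C, had 197 and 199 FPKM in shNYNRIN, against 156 and 163 FPKM in shCTL in set 1. Set 2 gave 158 and 152 FPKM in shNYNRIN, against 157 FPKM in shCTL replicate 4. The rise of UBE2C in set 1 was 0.31 ± 0.031 on the log2 scale (limma adjusted p = 0.00286). In set 2 the control lay between both shNYNRIN libraries. PTTG1 (securin), the inhibitor of separase, had 199.7 and 205 FPKM in shNYNRIN, against 164 and 164 FPKM in shCTL in set 1. Values of set 2 were 176 and 179.6 FPKM in shNYNRIN, against 159.7 FPKM in shCTL replicate 4. PTTG1 rose in set 1 with a log2 fold change of 0.30 ± 0.026 (limma adjusted p = 0.00188). This gave PTTG1 a log2 fold change of 0.15 ± 0.032 in set 2 (limma adjusted p = 0.0185). ESPL1, separase itself, which cleaves cohesin, had 20.5 and 19.4 FPKM in shNYNRIN, against 19.8 and 20.5 FPKM in shCTL in set 1. Set 2 levels were 16.2 and 16.3 FPKM in shNYNRIN, against 20.4 FPKM in shCTL replicate 4. It did not pass in set 1 (limma adjusted p = 0.875). ESPL1 passed in set 2, at -0.31 ± 0.052 on the log2 scale (limma adjusted p = 0.00848). Securin and separase thus had opposite calls in set 2. The PTTG1 call there was lost without shNYNRIN replicate 3, without shNYNRIN replicate 4 and with no trend, while that of ESPL1 held throughout. UBE2S, which extends the chains, rose by 0.21 in set 1 (limma adjusted p = 0.0204), a call lost without shCTL replicate 1 or shCTL replicate 2, and had 0.00 in set 2.

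All 4 tested spindle assembly genes rose in set 1 and 0 passed in set 2, with medians of 0.36 and 0.077. Over all tested genes 9.33% rose in set 1, while 11.6% rose and 8.71% fell in set 2. MZT1, a small protein that helps recruit gamma-tubulin ring complexes (chr13:72708357-72727687, minus strand), had the largest change of the 48 members. It had 74.4 and 81.8 FPKM in shNYNRIN, against 37.3 and 36.4 FPKM in shCTL in set 1. The rise of MZT1 in set 1 was 1.06 ± 0.055 on the log2 scale (limma adjusted p = 0.000457). In set 2 there were 68.7 and 63.8 FPKM in shNYNRIN, against 63.1 FPKM in shCTL replicate 4, with shCTL replicate 3 listed at 67. The log2 fold change there was 0.07 ± 0.067 and did not pass (limma adjusted p = 0.53). The difference was -0.99 ± 0.086 (limma adjusted p = 0.00094). The shCTL libraries of set 1, at 37.3 and 36.4 FPKM, stood below the 5 other tested libraries, which ranged from 63.1 to 81.8 FPKM.

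HMMR, which ties TPX2 and Aurora A to the spindle, had 59.0 and 57.4 FPKM in shNYNRIN, against 40.9 and 44.5 FPKM in shCTL in set 1. In set 2, levels were 47.4 and 47.9 FPKM in shNYNRIN, against 44.9 FPKM in shCTL replicate 4. HMMR rose in set 1 with a log2 fold change of 0.44 ± 0.044 (limma adjusted p = 0.00286). In set 2 both shNYNRIN libraries were above the control, with a log2 fold change of 0.09 that did not pass (limma adjusted p = 0.316). DLGAP5 (HURP), which stabilises kinetochore fibres, had 43.1 and 44.8 FPKM in shNYNRIN, against 35.7 and 36.0 FPKM in shCTL in set 1. In set 2 it had 38.8 and 40.1 FPKM in shNYNRIN, against 42.9 FPKM in shCTL replicate 4. This gave DLGAP5 a log2 fold change of 0.29 ± 0.035 in set 1 (limma adjusted p = 0.00548). TPX2 had 248 and 238 FPKM in shNYNRIN, against 202 and 198 FPKM in shCTL in set 1. Set 2 gave 215 and 210.4 FPKM in shNYNRIN, against 198 FPKM in shCTL replicate 4. TPX2 passed in set 1, at 0.28 ± 0.029 on the log2 scale (limma adjusted p = 0.00312). All 4 shNYNRIN libraries of TPX2 were above all 3 shCTL libraries.

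Of 2 cytokinesis and 2 mitotic chromosome genes tested, TOP2A rose in set 1 and MKI67 fell in set 2. Over all tested genes 9.33% rose in set 1 and 8.71% fell in set 2. ANLN (anillin), a scaffold of the contractile ring, had 16.5 and 16.0 FPKM in shNYNRIN, against 15.9 and 15.0 FPKM in shCTL in set 1. Values of set 2 were 17.8 and 17.9 FPKM in shNYNRIN, against 17.0 FPKM in shCTL replicate 4. It passed in neither set (limma adjusted p = 0.332 and 0.465). ECT2, which activates RhoA at the cleavage plane, had log2 fold changes of 0.23 in set 1 (limma adjusted p = 0.0511) and 0.18 in set 2. TOP2A, which disentangles sister chromatids, had 199.9 and 210.2 FPKM in shNYNRIN, against 184 and 191 FPKM in shCTL in set 1. Set 2 levels were 213 and 213 FPKM in shNYNRIN, against 194 FPKM in shCTL replicate 4. The rise of TOP2A in set 1 was 0.13 ± 0.032 on the log2 scale (limma adjusted p = 0.0425). MKI67, the proliferation antigen that coats mitotic chromosomes, had 45.2 and 43.3 FPKM in shNYNRIN, against 42.7 and 42.0 FPKM in shCTL in set 1, where it did not pass (limma adjusted p = 0.261). In set 2 there were 39.6 and 39.1 FPKM in shNYNRIN, against 45.6 FPKM in shCTL replicate 4. MKI67 fell in set 2 with a log2 fold change of -0.21 ± 0.042 (limma adjusted p = 0.0168). TOP2A had a log2 fold change of 0.14 in set 2 and did not pass (limma adjusted p = 0.0531).

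The calls differed in how far they rested on single libraries. In set 1, 16 of 27 calls held in every fit that left out 1 library and under every other alternative (HMMR, AURKA, TPX2, BIRC5, CDC25B, KIF20A, CDC20, NEK2, DLGAP5, CCNB1, KIF2C, CCNB2, CCNF, PTTG1, UBE2C and MZT1). The other 11 were lost without shCTL replicate 1, and some of these also without shCTL replicate 2 or an shNYNRIN library. Without shCTL replicate 1 the count was 17. In set 2, 4 of 10 calls held throughout (ESPL1, KIF23, CCNA2 and BUB3), and all 4 were falls. The other 6 were lost without shNYNRIN replicate 3, when 0 members rose, and 5 of them also without shNYNRIN replicate 4. For the difference, 11 of 25 calls held whichever library was left out, and the count was 13 without shNYNRIN replicate 3, 14 without shNYNRIN replicate 4, 16 without shCTL replicate 1 and 15 without shCTL replicate 2. Over both sets, leaving out shCTL replicate 4 leaves only set 1 to estimate the effect, and 27 members then rose.

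Other G2-M and mitosis genes were listed by complex. Of 121 listed beside the members, 112 were tested, of which 24 rose and 3 fell in set 1 (21.4% and 2.68%, against 9.33% and 6.61% of all tested genes) and 2 rose and 24 fell in set 2 (1.79% and 21.4%, against 11.6% and 8.71%). Their medians were 0.067 in set 1 and -0.069 in set 2, against 0.026 and 0.018 over all tested genes. These lists are set beside genes of all levels, and well expressed genes passed more often, as given above. Other G2-M regulators had 8 of 25 higher and 0 lower in set 1, led by CDKN3, a phosphatase of CDKs, which had 50.7 and 52.5 FPKM in shNYNRIN, against 38.0 and 33.8 FPKM in shCTL (log2 fold change 0.51 ± 0.06, limma adjusted p = 0.00435). FAM83D, which recruits casein kinase to the spindle, followed with 17.2 and 16.2 FPKM in shNYNRIN, against 12.7 and 12.2 FPKM in shCTL (log2 fold change 0.40 ± 0.046, limma adjusted p = 0.00424). In set 2, 0 of 25 were higher and 6 lower, led by CDC25A, which had 25.8 and 25.9 FPKM in shNYNRIN, against 36.1 FPKM in shCTL replicate 4 (log2 fold change -0.46 ± 0.052, limma adjusted p = 0.00205), and RBBP4, a histone chaperone, which had a log2 fold change of -0.27.

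Other spindle and cytokinesis genes had 7 of 25 higher (28%, against 9.33% of all tested genes) and 0 lower in set 1. In set 2, 1 was higher and 5 lower (4% and 20%, against 11.6% and 8.71% of all tested genes). CEP55, which acts at the midbody, and TACC3, which bridges kinetochore fibres, rose by 0.34 and 0.30 in set 1. CKAP2 and RCC1, which act on spindle microtubules and their assembly, fell in set 2 (log2 fold changes -0.43 and -0.33) and rose in set 1 (0.14 and 0.16). Other kinetochore genes had 5 of 26 higher and 1 lower in set 1 (19.2% and 3.85%, against 9.33% and 6.61% of all tested genes), with MAD2L2 at 0.30 and BOD1 at 0.26. In set 2, 0 were higher and 7 lower (26.9%, against 8.71% of all tested genes), with CENPM at -0.55 and DSN1 at -0.37.

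Condensin and cohesin genes had 2 of 20 higher and 1 lower in set 1, and 1 higher and 3 lower in set 2. The set 1 shares, 10% higher and 5% lower, were near the 9.33% and 6.61% of all tested genes. Those of set 2 were 5% higher and 15% lower, against 11.6% and 8.71% of all tested genes. SGO2, the protector of centromeric cohesin, had 20.6 and 21.8 FPKM in shNYNRIN, against 15.0 and 15.3 FPKM in shCTL in set 1 (log2 fold change 0.46 ± 0.043, limma adjusted p = 0.00233), while SMC3 and STAG1 had -0.16 and -0.18, of which only SMC3 passed. In set 2 STAG1 and SMC2 fell (log2 fold changes -0.40 and -0.23). The APC/C list had 2 of 16 higher in set 1, its subunit CDC23 and its late activator FZR1 (log2 fold change 0.31), and 1 lower, its subunit ANAPC5. These shares, 12.5% and 6.25%, were near the 9.33% and 6.61% of all tested genes. In set 2, 0 were higher and 3 lower (18.8%, against 8.71% of all tested genes). Among these were FBXO5 (EMI1), an inhibitor of the APC/C, at -0.46, and CDC23 at -0.30. In set 1, 13 of the 16 did not pass, beside the rises of CDC20, UBE2C and UBE2S.

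**Figure D4:**
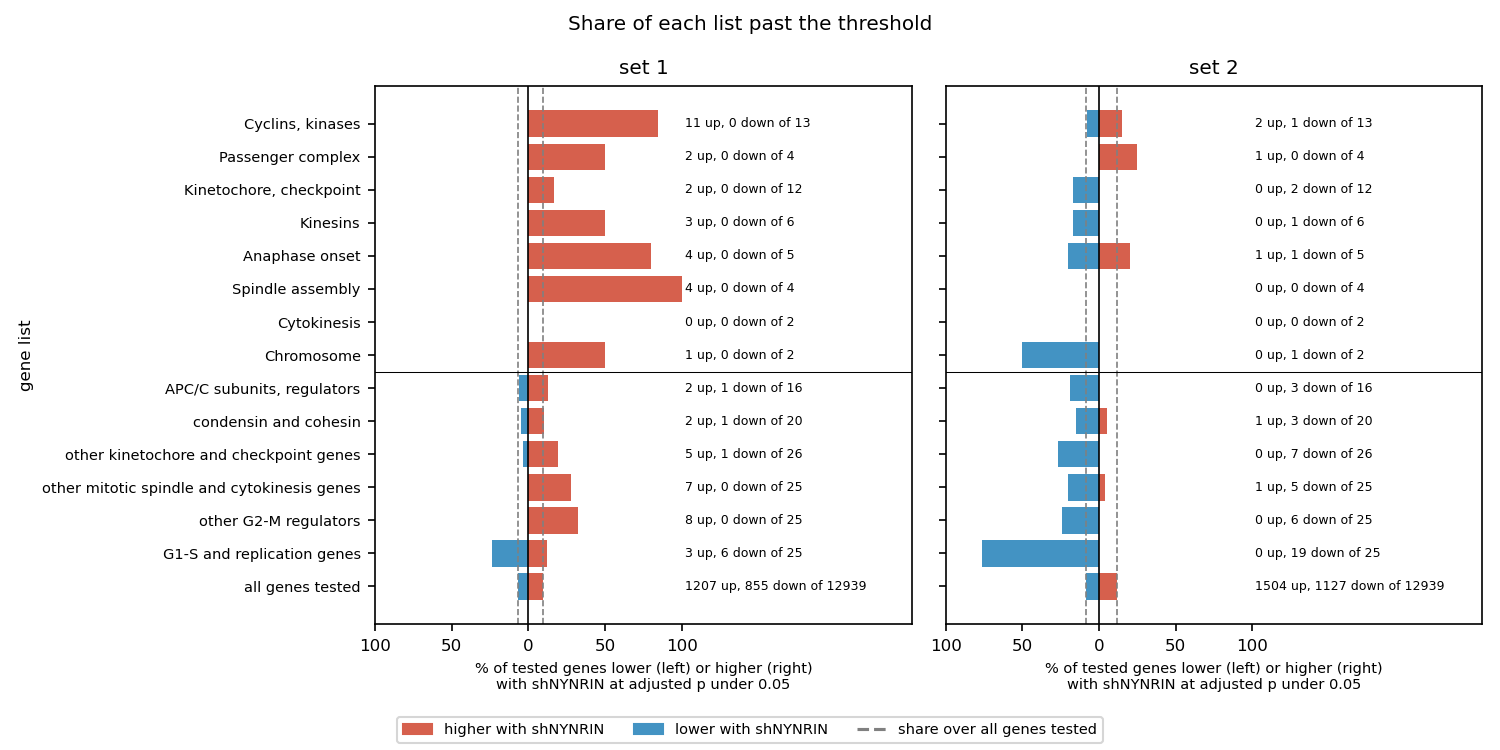
Share of tested genes of each list (rows) that were higher (right) or lower (left) with shNYNRIN at a limma adjusted p under 0.05, in set 1 (left panel) and set 2 (right panel), with dashed lines at the share over all tested genes. Above the line are the 8 groups of members, and below it other cell cycle lists, of which the G1-S and replication list reaches 19 of 25 lower in set 2.

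Of the genes of the G1-S transition and of DNA replication, the earlier part of the cycle, more fell than rose. Of 25 tested, 3 rose and 6 fell in set 1 (12% and 24%, against 9.33% and 6.61% of all tested genes), with a median of -0.082. In set 2, 0 rose and 19 fell (76.0%, against 8.71% of all tested genes lower), with a median of -0.37. TYMS, the thymidylate synthase, had 16.1 and 14.2 FPKM in shNYNRIN, against 45.9 FPKM in shCTL replicate 4 in set 2 (log2 fold change -1.54 ± 0.071, limma adjusted p = 0.000171). MCM6, a subunit of the replicative helicase, was among the 3 that rose in set 1, with 81.5 and 79.8 FPKM in shNYNRIN, against 63.7 and 63.7 FPKM in shCTL (log2 fold change 0.34 ± 0.028, limma adjusted p = 0.00168), and had 63.4 and 64.3 FPKM in shNYNRIN, against 99.5 FPKM in shCTL replicate 4 in set 2. Summed levels of the 25 genes were 1733 and 1709 FPKM in shNYNRIN, against 1807 and 1828 FPKM in shCTL of set 1. In set 2 they were 1491 and 1491 FPKM in shNYNRIN, against 1920 FPKM in shCTL replicate 4.

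**Figure D5:**
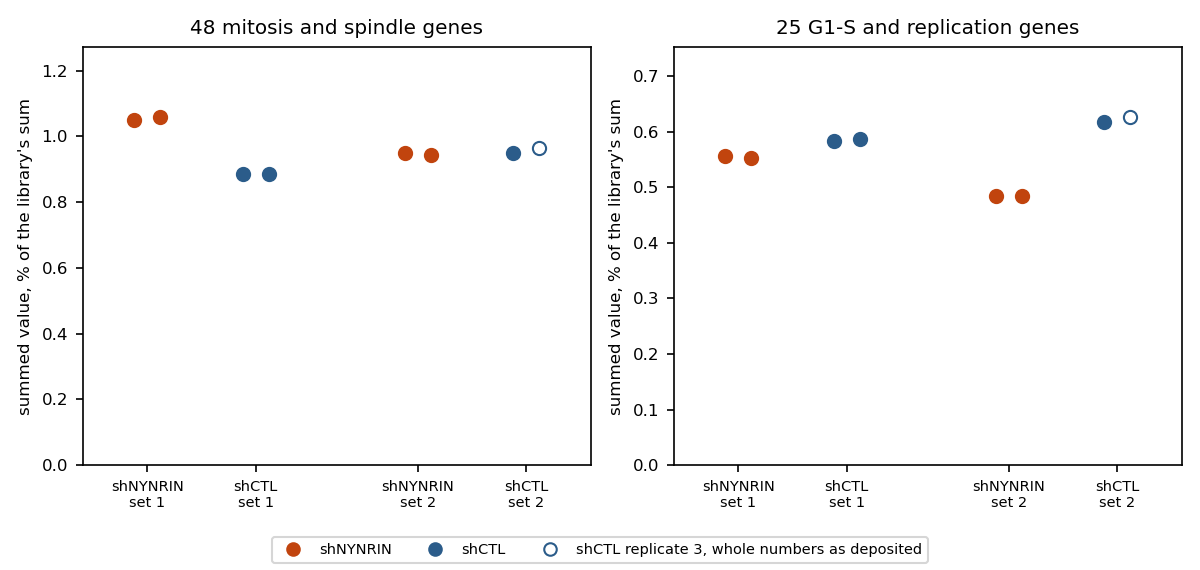
Summed value of the 48 members (left) and of 25 G1-S and replication genes (right) as a share of the library's summed value (%, vertical axes from 0) in shNYNRIN and shCTL of each set (horizontal axes), 1 point per library. The members' share is highest in set 1 shNYNRIN (1.05% and 1.06%) and lowest in set 1 shCTL (0.886% and 0.885%), and the G1-S share is lowest in set 2 shNYNRIN.

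The responses were also set beside the promoter letters. Among 26 tested members with a CHR match near the start, such as CCNB2, PLK1, CKS2 and HMMR above, 11 rose in set 1, with a median of 0.12. Among 15 with a window but no such match, which include CCNB1, CDC20, KIF20A and MZT1, 12 rose, with a median of 0.26. Over all tested genes 9.33% rose in set 1. CCNB1, CDC20, KIF20A and MZT1 had the largest set 1 changes of all members and were chosen after values were seen. They do not stand for their group. In set 2 the medians were -0.034 and -0.039 for these groups. Members were not assigned to these groups at random, the other 7 members could not be placed, and no test was made. The groups rest on the searched letters only, and other forms of the CHR were left out.

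Scaling of the libraries changed the split of calls over all genes in set 1. With upper-quartile scaling, 789 of all tested genes were higher and 1183 lower in set 1, against 1207 higher and 855 lower as deposited. Members were then 22 higher and 0 lower, with a median of 0.17. Over both sets the same scaling gave 10 higher and 20 lower of all tested genes, and quantile normalization 4 and 4, against 25 higher and 16 lower as deposited, and no member passed under either. As for reads shared between genes, 29 of the 50 members are overlapped by another annotated gene on either strand (11 on the same strand and 22 on the opposite one), and the sources used here do not give the strand setting of the counting. Overlap was taken between whole annotated spans, and shared exons were not measured.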

How the data were processed

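Bulk RNA was sequenced from sorted cells labelled KG-1a, 4 libraries per group, with a low-input kit (SMART-Seq v4), per the labels. Bowtie 0.12.9, Cufflinks 2.1.1 and HTSeq are listed in the submitters' processing notes, with the builds hg38 and mm10 and no role for either. The sources used here do not give aligner settings, annotation or strandedness. For 7 libraries the deposited values were taken as FPKM, judged by scale and decimals. ShCTL replicate 3, as deposited, was handled as a score because every value is whole, with a median offset of -0.5003 from shCTL replicate 4 among genes at 10 to 30 FPKM. The first table also holds a mean normalized count, used as a score of depth, a log2 fold change, a p-value and a q-value, all made by the authors with a program that the sources used here do not name.

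Log2(FPKM + 1) was tested with limma 3.58.1 (R 4.3.3, mean-variance trend). Genes needed 1 FPKM or more in 2 or more libraries, which left 12939. Two-sided p-values were adjusted over all of them by Benjamini-Hochberg, with a threshold of 0.05. The pseudocount understates changes of low genes. An interaction of group and table gave the effects of set 1 and set 2 and the difference (3 residual degrees of freedom), and an additive model the effect over both (4). The model was tested on simulated data. ShCTL replicate 3 was left out because earlier work on these files had shown its whole numbers. Members, gene lists and markers were chosen with earlier results of these data known. Values in every library are given for members that passed in set 1, in set 2 or for the difference, at most 4 per group (6 in groups of more than 6 members), and for the member of the group with the smallest change in set 1. Of the other lists the 2 largest passing changes per set are named, except 1 gene that is not reported here, and other members are given by fold change or range. The library values of PLK1 and NEK2, which fall outside that rule, and the 8 promoter windows were chosen after values were seen. Alternatives were other pseudocounts, filters, scalings, no trend, shCTL replicate 3 included, replicate blocks, single sets and leaving out each library.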

Additional observations from a re-analysis of the deposited data

Results flagged for a closer look

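Among the shNYNRIN values of the 48 members, 2 held a library far from the other 3 by Dixon's criterion, which chance alone meets in about 1 of 20 groups. Replicate 1 had 96.07 FPKM of UBE2S, against 86.8 to 88.24 FPKM in the other shNYNRIN libraries, and 31.69 FPKM of INCENP, against 27.98 to 28.1 FPKM.

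The effect of shNYNRIN differed between the sets for 25 members by the interaction test (set 2 minus set 1, log2 scale, limma adjusted p under 0.05), and all 25 values were negative. Among cyclins and kinases they were -0.59 for CCNA2, -0.53 for CCNB1, -0.48 for CKS2, -0.45 for CDC25B, -0.38 for CCNF, -0.30 for CDK1, -0.29 for AURKA, -0.22 for CKS1B and -0.21 for CCNB2. The passenger complex gave -0.32 for CDCA8 and -0.21 for AURKB. Checkpoint genes gave -0.28 for BUB1, -0.26 for BUB3 and -0.21 for BUB1B. The kinesins gave -0.56 for KIF20A, -0.41 for KIF23 and -0.16 for KIF2C. Anaphase genes gave -0.68 for CDC20, -0.33 for UBE2C and -0.30 for ESPL1. Spindle assembly genes gave -0.99 for MZT1, -0.40 for DLGAP5, -0.35 for HMMR and -0.18 for TPX2, and MKI67 gave -0.27. The difference was tested across tables that also differ in their control libraries, and set 2 has 1 control.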

How the results depend on the processing

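No value changed sign past the threshold under any alternative that was run, and members lower in set 1 and higher for the difference stayed at 0 throughout. In set 1, leaving out each library gave 17 to 27 members higher and a median of 0.16 to 0.21, no trend gave 17 higher, upper-quartile scaling a median of 0.17 and quantile normalization 0.19. In set 2, leaving out each library gave 0 to 7 higher, 4 to 6 lower and a median of -0.037 to -0.016. Including shCTL replicate 3 as deposited gave 11 higher, and with 0.5 added 10 higher with a median of -0.038. Of all 12957 genes tested there, 2393 were higher as deposited and 2165 with 0.5 added, against 1504 of 12939 in the main fit. Set 2 alone with that library gave 10 higher, 11 lower and a median of -0.038, where 2178 of 12577 genes were higher and 1728 lower. No trend gave 1 higher, beside 1070 of all 12939 tested genes. The median was -0.033 with at least 10 FPKM, -0.044 with upper-quartile scaling and -0.007 with quantile normalization. For the difference, leaving out each library gave 13 to 24 lower and a median of -0.22 to -0.20, and no trend 10 lower. Its median was -0.18 with shCTL replicate 3 as deposited, -0.19 with 0.5 added, -0.19 with upper-quartile scaling and -0.18 with quantile normalization. Over both sets, leaving out each library gave 0 to 27 higher and a median of 0.092 to 0.21. Including shCTL replicate 3 gave 4 higher in either form (median 0.11 with 0.5 added), at least 10 FPKM gave 2, and upper-quartile scaling (median 0.097), quantile normalization and no trend gave 0. Of 12957 genes, 252 were higher with that library as deposited and 293 with 0.5 added. With at least 10 FPKM, 46 of 6150 genes were higher. An effect free to differ and averaged over both sets, an alternative added after seeing the data, gave 22 higher and 2 lower with a median of 0.11. Of all 12939 tested genes, 1388 were then higher and 916 lower. The cause of these shifts was not tested.

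A replicate block by the number in the titles, over 8 libraries, gave 7 higher in set 2 with a median of -0.038, a median difference of -0.19, and 0 higher over both sets with a median of 0.11. With this block 1808 of 12957 genes were higher in set 2. A block by the number in the library names gave 0 higher over both sets with 7 libraries (median 0.10) and with 8, added after seeing the data (median 0.11). Deviations of same-numbered libraries from the mean of their group gave r of 0.0989, 0.151, 0.166 and 0.136 by library name. By title, r was -0.137, -0.179, -0.169 and -0.151, over 5395 genes. Libraries with the same title number share a set, and those with the same library-name number do not. These values therefore hold the difference between sets and cannot show whether the numbers pair libraries. No label says that they do, and the numbers were not taken to pair the libraries.

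Without shCTL replicate 4 no set 2 value exists. Precision is limited by 1 control in set 2 and by 3 and 4 residual degrees of freedom.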
